A study of Mus musculus with 28 samples.

Results

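RISP is the Rieske iron-sulfur protein of mitochondrial complex III, encoded by Uqcrfs1. RNA of regulatory T (Treg) cells lacking RISP was compared with RNA of wild-type Treg cells from 3-week-old mice. The libraries were taken from the deposited count table that holds both genotypes at that age: 4 RISP_WT and 4 RISP_KO libraries, 8 of the 28 libraries of the series. The series also compares Treg cells of both genotypes from chimeras and wild-type Treg cells kept in vitro with respiratory chain inhibitors. All 8 libraries came from mice of the C57BL/6NJ strain, labelled RISP WT or RISP KO. The cells were sorted as CD4+, CD25+ and positive for a YFP reporter of Foxp3 in both genotypes, and the libraries were made with the SMART-Seq v4 and Nextera XT kits. The labels give neither the Cre driver of the deletion, nor the sex of the mice, nor whether a library is 1 mouse or a pool. P-values therefore measure the spread between these libraries, which may in part be technical.

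Complex III passes electrons from ubiquinol to cytochrome c and pumps protons across the inner mitochondrial membrane. It needs the iron-sulfur cluster of RISP for that transfer. Loss of the complex stops the respiratory chain, the reoxidation of mitochondrial NADH and the oxidation of succinate and dihydroorotate, whose enzymes deliver electrons to ubiquinone. Treg cells suppress other T cells under the control of the transcription factor Foxp3 and depend on interleukin 2 (IL-2) from their neighbours. They use glycolysis less than effector T cells do. Proliferating cells with an impaired respiratory chain run short of aspartate and asparagine, and the transcription factor ATF4 then induces genes of amino acid uptake and synthesis and of tRNA charging.

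Libraries held 28.4 M to 50.8 M counts. Levels below are CPM, gene counts scaled to the total of the library after TMM normalization, and 4 values in a row stand for replicates 1 to 4. A difference is the log2 fold change, RISP_KO minus RISP_WT, with its standard error, from edgeR's quasi-likelihood test. A gene was called higher ("rose") or lower ("fell") at an adjusted p under 0.05 over all 13832 genes tested, of which 1364 (9.86%) were called: 661 higher (4.78%) and 703 lower (5.08%). The median log2 fold change over all genes tested was 0.0044. All knockout libraries lay above all wild-type libraries for 7.89% of the genes and below them for 9.49%. The first principal component held 44.7% of the variance and separated the genotypes. The second held 26.0% and spread the knockout libraries from replicate 1 (27.4) to replicate 4 (-20.7), while the wild-type libraries lay between -7.30 and 2.47. Without RISP_WT replicate 1 the count of called genes was 787, and without RISP_WT replicate 3 it was 788; 665 of the 1364 genes were called whichever library was left out. Y-linked Ddx3y read 0.135, 0.0517, 14 and 98.5 CPM in RISP_WT and 0.196, 0.176, 4.44 and 83.2 CPM in RISP_KO, so libraries with Y-linked RNA occurred in both genotypes.

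The label was checked against markers. T cell markers summed to 9493 to 9740.3 CPM in RISP_WT and 8097 to 9040.2 CPM in RISP_KO. Foxp3 read 33.3, 30.3, 33.2 and 35.8 CPM in RISP_WT and 35.3, 38.2, 35.6 and 25.1 CPM in RISP_KO. The genotypes overlapped, with a log2 fold change of 0.02 ± 0.14 (SE, adjusted p = 0.959). The 2 markers of CD8 T cells summed to at most 28.3 CPM in any library. Markers of monocytes and macrophages were low and moved with genotype. The 12 genes of that list summed to 9.87 to 48.3 CPM in RISP_WT and 4.19 to 11.1 CPM in RISP_KO. All 9 that were tested had a negative fold change, and 3 fell, among them the complement gene C1qb (log2 fold change -2.24 ± 0.47 SE, adjusted p = 0.0128); the count of falls was 5 without RISP_WT replicate 1 and 6 without RISP_KO replicate 3. Adgre1, which encodes F4/80, fell as well (log2 fold change -3.66 ± 0.77 SE, adjusted p = 0.0131), with 1 knockout library at 0. Of 10 stromal, epithelial and endothelial markers, 7 were tested and 3 fell, with sums of 203 to 216 CPM and 123 to 146 CPM. Most of each sum was Pecam1, with means of 163 CPM in RISP_WT and 104 CPM in RISP_KO. Epcam followed with means of 34.9 and 19.2 CPM. Dendritic cell markers summed to 77.5 to 99.97 CPM in RISP_WT and 76.5 to 153 CPM in RISP_KO. Natural killer cell markers summed to 5.10 to 8.73 CPM and 41.8 to 61.2 CPM. Erythroid markers summed to 0.649 to 114 CPM and 2.29 to 291 CPM, highest in RISP_KO replicate 3. The sums of the 13 B cell markers were larger, at 881 to 1070 CPM in RISP_WT and 767 to 974 CPM in RISP_KO. Of 10 B cell markers tested, 2 fell and 1 rose. The rise was that of Cd74, from between 87.8 and 142 CPM to between 140 and 205 CPM (log2 fold change 0.71 ± 0.16 SE, adjusted p = 0.0178). The number that rose was 0 without RISP_WT replicate 1, 2 or 3 and 2 without RISP_WT replicate 4. Igkc, the kappa light chain gene, read 6.36, 7.57, 5.85 and 12.8 CPM in RISP_WT and 1.79, 2.11, 2.36 and 0.926 CPM in RISP_KO (log2 fold change -2.18 ± 0.34 SE, adjusted p = 0.00266). In an alternative fit that took the mean level of markers of macrophages, of B cells and of plasma cells as a further term (the marker covariate), 81 genes were called. In that fit 1358 of the 1364 genes kept their sign and 80 kept their call, among them Uqcrfs1, H2-DMa, Nrp1, Sytl2, Lhfp, Plac8, Il4ra, Mcub, Slc1a4, Sesn1, Tox2, Pdcd1 and Il12rb2. The marker covariate includes genes called lower in these same libraries, and it moved with genotype. Calls can be lost in that fit for this reason alone, so a lost call does not show a part of other cells. Beyond these values the part of other cells in the results below was not tested. In bulk RNA, fewer cells of a kind and less RNA per cell cannot be told apart.

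Uqcrfs1 (chromosome 13, 30540308 to 30545362, mm10) checks the genotype. It read 189, 151, 186 and 174 CPM in RISP_WT and 7.28, 5.63, 5.20 and 6.48 CPM in RISP_KO, 28.4-fold lower with no overlap (log2 fold change -4.83 ± 0.14 SE, adjusted p = 2.19e-08). Some Uqcrfs1 RNA was thus counted in every knockout library. Of the 17 genes that encode subunits or assembly factors of complex III or its substrate cytochrome c, the only other one to fall was mitochondrial mt-Cytb. Of the others, the nuclear core subunit gene Uqcrc1 read 540.4, 540.4, 534 and 485 CPM in RISP_WT and 572, 538, 475 and 531 CPM in RISP_KO, and 14 of the 17 did not pass the test in either direction. Cycs, the gene of cytochrome c, rose by 0.48 ± 0.11 (SE, adjusted p = 0.0247), a call lost without RISP_WT replicate 1, 2 or 3 or RISP_KO replicate 2 or 3 (adjusted p up to 0.0827).

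Many genes near Uqcrfs1 were called. Within 5 Mb of it, 11 of the other 27 genes tested were called (40.7%), 6 higher and 5 lower, against 49 of 520 (9.42%) on the whole chromosome. The share was 3 of 9 (33.3%) within 2 Mb and 17 of 96 (17.7%) within 10 Mb. In the chimeras 1 of 32 genes within 5 Mb was called, against 102 of 14399 (0.708%) over all genes tested there. Nearest to Uqcrfs1 among the genes called in 3-week-old mice was Irf4, a transcription factor of effector Treg cells. Its first base on the chromosome lies 209 kb from that of Uqcrfs1. It read 50.3, 57.5, 53.8 and 57 CPM in RISP_WT and 94.1, 79.2, 64 and 91.4 CPM in RISP_KO (log2 fold change 0.59 ± 0.12 SE, adjusted p = 0.0128). Irf4 was also the 1 gene of the window called in the chimeras, where it fell (log2 fold change -0.59, adjusted p = 0.0496). The quinone reductase gene Nqo2 fell 2.52-fold, from 16 to 22 CPM to 6.99 to 9.05 CPM. The neighbouring serpin genes Serpinb6b and Serpinb9 rose by 0.64 ± 0.10 and 0.93 ± 0.18, whereas Serpinb1a fell by 2.28 ± 0.46 on the log2 scale. These serpins are close relatives, so reads shared among them could have been split. The window and these genes, other than the serpins of the cytotoxic list and Irf4, were chosen after their values were seen.

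Most messenger RNAs of mitochondrial DNA fell. Of 12 such mRNAs tested, 8 fell and none rose (median -0.55), and 7 to 8 fell when 1 library was left out. mt-Nd4, a complex I subunit gene, read 514, 549, 633 and 643 CPM in RISP_WT and 309.6, 379, 313 and 332 CPM in RISP_KO (log2 fold change -0.81 ± 0.10 SE, adjusted p = 6.87e-04). Its highest knockout library was below its lowest wild-type library. mt-Cytb, the only complex III gene of mitochondrial DNA, read 2479, 2385, 2448 and 2906 and then 1670.3, 1516, 1446 and 1678 CPM (log2 fold change -0.70 ± 0.09 SE, adjusted p = 7.34e-04). mt-Nd5, mt-Nd6, mt-Atp6 and mt-Atp8 fell by similar amounts, between -0.61 and -0.52. The ATP synthase transcripts mt-Atp6 and mt-Atp8 overlap each other. By contrast mt-Co1, of complex IV, read 1826 to 2163 CPM in RISP_WT and 1794 to 2456 CPM in RISP_KO (log2 fold change 0.06 ± 0.10 SE, adjusted p = 0.741). mt-Nd1 read 1405 to 1695 CPM and 1315 to 1528 CPM, and neither passed the test. The median log2 fold change of the 36 nuclear complex I subunit genes was 0.12, with 1 called, and that of 23 nuclear genes of complexes II, IV and V 0.11, with 2 called. None of these 3 calls held without each library in turn, and 5 complex I genes rose without RISP_KO replicate 4. Of 23 genes for transcription and decay of mitochondrial RNA, none was called and 12 had a positive fold change; the count of rises was 1 without RISP_KO replicate 4. With the marker covariate 0 of the mitochondrial mRNAs were called.

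The mitochondrial calcium uniporter is described by 2 of its genes. Mcub, the dominant-negative subunit of the mitochondrial calcium uniporter, was among the genes with the smallest p. It read 49.6, 48.6, 46.1 and 49.2 CPM in RISP_WT and 117, 102, 111 and 117 CPM in RISP_KO, 2.31-fold higher (log2 fold change 1.21 ± 0.08 SE, adjusted p = 3.14e-05). Mcu, the pore subunit, which was looked up after the value of Mcub was seen, fell by 0.52 ± 0.11 on the log2 scale (adjusted p = 0.0149). The fall of Mcu lost its call without RISP_WT replicate 1 (adjusted p = 0.0561).

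**Figure D1:**
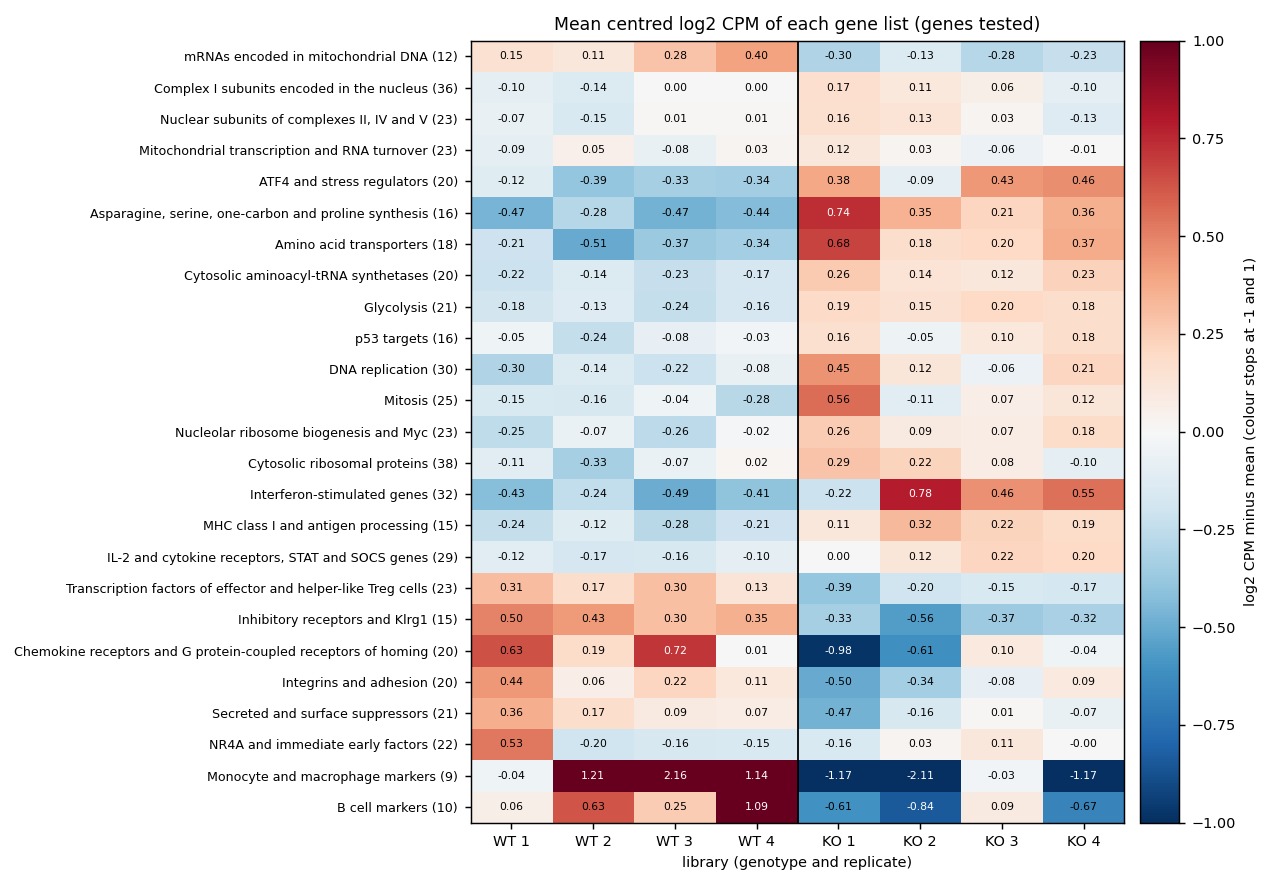
Mean level of each gene list in each library. Colours and numbers give the mean over the tested genes of a list of log2 CPM minus the gene's mean over the 8 libraries (rows: lists, with the number of genes tested; columns: 4 RISP_WT and 4 RISP_KO libraries). Mitochondrial mRNAs and inhibitory receptors were lower in all 4 knockout libraries than in any wild-type library, and the interferon list was at -0.22 in RISP_KO replicate 1 and 0.46 to 0.78 in the other 3.

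Genes of asparagine, serine, one-carbon and proline synthesis rose in part. Of 16 tested, 9 rose, 7 were not called and none fell, with a median of 0.42; 7 to 9 rose when 1 library was left out and 0 with the marker covariate. Asns, which makes asparagine from aspartate, read 7.55, 11.7, 6.59 and 13.9 CPM in RISP_WT and 91.5, 56.5, 47 and 53.8 CPM in RISP_KO, 6.23-fold higher (log2 fold change 2.64 ± 0.28 SE, adjusted p = 3.83e-04). Pycr1, the last enzyme of proline synthesis in mitochondria, read 0.757, 1.24, 1.21 and 0.800 CPM and then 8.06, 4.19, 4.97 and 5.27 CPM (log2 fold change 2.49 ± 0.28 SE, adjusted p = 4.57e-04). Both genes were highest in RISP_KO replicate 1 and overlapped with no wild-type library. Phgdh, the first enzyme of serine synthesis, rose from between 213 and 245 CPM to between 303 and 485 CPM (log2 fold change 0.73 ± 0.13 SE, adjusted p = 0.00564). The mitochondrial pair Shmt2 and Mthfd2, which pass the carbon of serine to folate, rose 2.0-fold and 1.65-fold. Cth, which makes cysteine by transsulfuration, read 0.162, 0.233, 0.386 and 0.195 CPM in RISP_WT and 6.72, 3.10, 0.983 and 2.03 CPM in RISP_KO (log2 fold change 3.71 ± 0.59 SE, adjusted p = 0.00314). Psat1 and Psph, the next enzymes after Phgdh in serine synthesis, had log2 fold changes of 0.44 ± 0.12 (SE, adjusted p = 0.0352) and 0.29 ± 0.09 (SE, adjusted p = 0.0679). The call of Psat1 was lost without RISP_WT replicate 1, 2, 3 or 4 or RISP_KO replicate 1, 2 or 4 (adjusted p up to 0.113).

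Among 18 amino acid transporters 6 rose and 1 fell (median 0.21). The count of falls was 0 without RISP_WT replicate 1 or 3 or RISP_KO replicate 2 or 3 and 2 without RISP_WT replicate 4 or RISP_KO replicate 4. Slc1a4, which carries alanine, serine and cysteine, read 1.76, 1.32, 1.71 and 1.48 CPM in RISP_WT and 17.6, 10.5, 11 and 12.1 CPM in RISP_KO, 8.17-fold higher (log2 fold change 3.03 ± 0.22 SE, adjusted p = 6.06e-05). Slc7a5 and Slc3a2, the 2 chains of the large neutral amino acid transporter, rose by 0.98 ± 0.15 and 0.65 ± 0.10. Slc7a3, a carrier of arginine and lysine, read 0.108, 0, 0.110 and 0.156 CPM and then 10.2, 0.915, 3.15 and 2.89 CPM (log2 fold change 5.43 ± 0.84 SE, adjusted p = 0.00260), and RISP_KO replicate 1 was the highest library. Slc6a9, the glycine transporter, rose from between 0.138 and 0.460 CPM to between 1.34 and 3.30 CPM.

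All 20 cytosolic aminoacyl-tRNA synthetase genes had a positive fold change. Of these 11 rose (median 0.37), 8 to 11 when 1 library was left out, and 0 with the marker covariate. Vars, which charges valine, read 319, 295, 287 and 309 CPM in RISP_WT and 603, 477, 510.0 and 514 CPM in RISP_KO (log2 fold change 0.80 ± 0.09 SE, adjusted p = 4.28e-04). Aars, which charges alanine, rose from between 146 and 153 CPM to between 225 and 246 CPM (log2 fold change 0.67 ± 0.07 SE, adjusted p = 3.16e-04), and Cars, which charges cysteine, by 0.95 ± 0.11. Of the 17 synthetases of mitochondria only Tars2 was called, at 0.59 ± 0.10 (SE, adjusted p = 0.00388), with a list median of 0.05. Among 15 transaminase and malate-aspartate shuttle genes 3 rose. Got1, the cytosolic enzyme that can make aspartate, read 62.7, 54.1, 68.6 and 66.9 CPM in RISP_WT and 107, 111, 110.3 and 113 CPM in RISP_KO (log2 fold change 0.81 ± 0.09 SE, adjusted p = 4.49e-04). Gpt2 and Bcat1, which transaminate alanine and branched-chain amino acids, rose by 1.19 ± 0.17 and 0.96 ± 0.19. Gpd2, whose enzyme feeds electrons from glycerol 3-phosphate to ubiquinone, fell by 0.71 ± 0.12 on the log2 scale (adjusted p = 0.00538).

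Genes of ATF4 and its stress pathway rose in part. Of 20 tested, 5 rose and none fell (median 0.20); the count was 2 without RISP_WT replicate 3 and 3 without RISP_WT replicate 1, 2 or 4 or RISP_KO replicate 3. Trib3, an ATF4 target that feeds back on the pathway, read 8.93, 5.79, 10.8 and 6.89 CPM in RISP_WT and 32.8, 20.5, 29.4 and 25.9 CPM in RISP_KO (log2 fold change 1.74 ± 0.22 SE, adjusted p = 7.73e-04). Chac1, which degrades glutathione, was near 0 in RISP_WT at 0.0541, 0, 0.165 and 0.273 CPM and read 5.32, 2.01, 1.80 and 3.65 CPM in RISP_KO (log2 fold change 4.59 ± 0.68 SE, adjusted p = 0.00199). Atf4 itself read 98.5, 66.4, 63.8 and 66.9 and then 142, 103, 82.8 and 87 CPM, higher on average but overlapping and not called (log2 fold change 0.49 ± 0.19 SE, adjusted p = 0.133). Ddit3, which encodes CHOP, rose by 0.82 ± 0.20, a call lost without RISP_WT replicate 1, 2 or 3 or RISP_KO replicate 2 or 3 (adjusted p up to 0.0653). The kinases that start the pathway, Eif2ak1 to Eif2ak4, and Oma1, the protease that signals mitochondrial stress to it, had log2 fold changes between -0.30 and -0.02, and none was called.

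The promoters of the members of these lists were searched for TGATGNAA on either strand (TTNCATCA on the other), the core of the CARE site that ATF4 and its C/EBP partners bind. Promoters are the RefSeq windows on GRCm38.p6 from 250 bases before to 50 after the start of a gene. The letters occurred in 10 of the 27 genes with a window among the 34 that rose in the lists of stress, amino acid synthesis and transport, tRNA charging and transaminases (37.0%), in 4 of 39 uncalled members (10.3%), and in 282 of the 9934 tested genes with a window (2.84%). Over all 661 genes that rose the share was 5.46%. Several members of these lists are textbook targets of ATF4, so the lists were not chosen apart from the motif. Of the 10 genes with a match, 5 in which it lies before the start are shown, each within 70 bases, 5′ to 3′ on the gene's strand, with the motif in capitals.
Asns (chr6:7693210-7693279, minus strand): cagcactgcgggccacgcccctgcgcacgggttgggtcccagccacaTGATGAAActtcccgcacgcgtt
Pycr1 (chr11:120643813-120643882, minus strand): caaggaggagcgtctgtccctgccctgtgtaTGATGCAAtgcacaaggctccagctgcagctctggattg
Chac1 (chr2:119351018-119351087, plus strand): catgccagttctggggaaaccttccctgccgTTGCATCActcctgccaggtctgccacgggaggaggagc
Aars (chr8:111033699-111033768, plus strand): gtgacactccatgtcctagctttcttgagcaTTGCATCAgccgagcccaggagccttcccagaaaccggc
Got1 (chr19:43524669-43524738, minus strand): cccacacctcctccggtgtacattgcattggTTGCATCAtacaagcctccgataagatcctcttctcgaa
Asns carried the motif 23 bases before its start, and Pycr1, Got1 and Aars carried it 103, 102 and 112 bases before theirs. A match describes these letters and shows no binding.

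**Figure D2:**
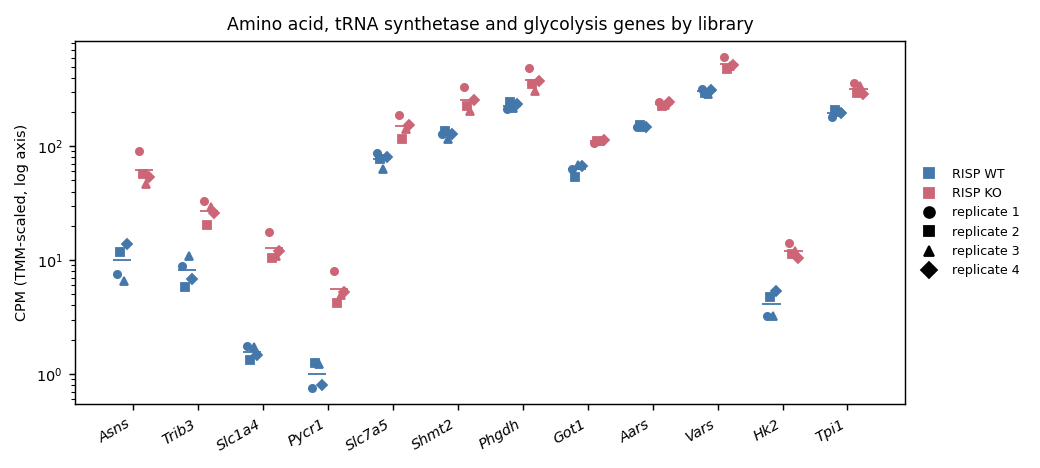
Levels of 12 genes of amino acid synthesis, transport, tRNA charging and glycolysis. The vertical axis is CPM on a log scale; each symbol is 1 library (shape: replicate), and bars are means of 4 libraries. In each of the 12 genes the 4 RISP_KO libraries lie above the 4 RISP_WT libraries.

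Glycolytic enzymes rose in part. Of 21 glycolysis genes 11 rose, 10 were not called, none fell and the median was 0.30; 8 to 11 rose when 1 library was left out and 0 with the marker covariate. Hk2, the inducible hexokinase, read 3.22, 4.75, 3.23 and 5.31 CPM in RISP_WT and 14.2, 11.3, 12.1 and 10.4 CPM in RISP_KO, 2.90-fold higher (log2 fold change 1.54 ± 0.21 SE, adjusted p = 0.00131). Pfkp and Aldoa, of the committed step and the next, rose by 0.61 ± 0.07 and 0.59 ± 0.07, and Tpi1 by 0.71 ± 0.09. Ldha, which turns pyruvate into lactate, read 2045 to 2328 CPM in RISP_WT and 2416 to 2602 CPM in RISP_KO and was not called (log2 fold change 0.16 ± 0.07 SE, adjusted p = 0.167). Of the 7 pentose phosphate genes tested none was called, and the number that rose was 1 without RISP_KO replicate 4. Idh2, the mitochondrial NADP-dependent isocitrate dehydrogenase, rose from between 60.2 and 66.6 CPM to between 92.9 and 110.1 CPM (log2 fold change 0.67 ± 0.08 SE, adjusted p = 7.13e-04), 1 of 2 genes to rise among 27 of the tricarboxylic acid cycle and pyruvate entry, whose median was -0.02. The count of these rises was 1 without RISP_WT replicate 1, 2, 3 or 4 or RISP_KO replicate 1, 2 or 3. Idh1 was the 1 gene of that list to fall (log2 fold change -0.61 ± 0.15 SE, adjusted p = 0.0262). The count of falls was 0 without RISP_WT replicate 1, 2 or 3 and 2 without RISP_KO replicate 4. Of 19 hypoxia-response genes 3 rose and 1, Bnip3l, fell (log2 fold change -0.42 ± 0.09 SE, adjusted p = 0.0181). That count of falls was 0 without RISP_WT replicate 3 or RISP_KO replicate 2. Epas1, which encodes HIF-2 alpha, read 1.16, 1.37, 1.52 and 0.858 CPM and then 15.5, 5.18, 8.29 and 5.27 CPM (log2 fold change 2.81 ± 0.38 SE, adjusted p = 0.00129). Vegfa rose by 1.55 ± 0.32. Of 21 antioxidant genes 4 fell and 1 rose, with a median of -0.04; the number that rose was 0 without RISP_WT replicate 1, 2 or 3 or RISP_KO replicate 3 and 2 without RISP_KO replicate 4. Osgin1, a target of the oxidative stress factor NRF2, fell from between 11.9 and 16.9 CPM to between 3.62 and 5.01 CPM (log2 fold change -1.62 ± 0.18 SE, adjusted p = 4.28e-04), and Cat, the gene of catalase, fell by 0.42 ± 0.09 on the log2 scale (adjusted p = 0.0127).

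Nearly all growth and replication genes had a positive fold change, and many calls among them were lost when 1 wild-type library was left out. Of 30 DNA replication genes 29 had a positive fold change and 9 rose, but the count was 3 without RISP_WT replicate 1 or 3 and 4 without RISP_WT replicate 2. Pole, the catalytic subunit of the leading-strand polymerase, read 37.4, 35, 32.6 and 34.2 CPM in RISP_WT and 60.7, 52.6, 53.3 and 63.2 CPM in RISP_KO (log2 fold change 0.72 ± 0.10 SE, adjusted p = 0.00130), and Mcm2 of the replicative helicase rose by 0.53 ± 0.10. Both held their call whichever library was left out. All 25 mitosis genes had a positive fold change (median 0.34), and 1 was called; the count was 2 without RISP_KO replicate 4 and 5 without RISP_KO replicate 2. The mean of that list was 0.56, -0.11, 0.07 and 0.12 in the knockout libraries, so replicate 1 stood above the others. Of 23 nucleolar genes 7 rose, all 23 had a positive fold change and the median was 0.25; the count was 2 without RISP_WT replicate 3 and 3 without RISP_WT replicate 1. Nop56, a core protein of box C/D small nucleolar RNPs, rose from between 167 and 205 CPM to between 267 and 312 CPM (log2 fold change 0.63 ± 0.09 SE, adjusted p = 0.00177). Myc rose by 0.62 ± 0.14, a call lost without RISP_WT replicate 3 or RISP_KO replicate 3 (adjusted p up to 0.0656). All 38 cytosolic ribosomal protein genes had a positive fold change (median 0.26) and 3 rose. The count was 1 without RISP_WT replicate 1 and 15 without RISP_KO replicate 4. The mean of that list was -0.11, -0.33, -0.07 and 0.02 in RISP_WT and 0.29, 0.22, 0.08 and -0.10 in RISP_KO, so the genotypes overlapped. The pyrimidine pathway passes through the ubiquinone-linked enzyme Dhodh. Of 15 of its genes 3 rose and 1 fell (median 0.23), and 1 to 3 rose when 1 library was left out. Cad of the first steps rose by 0.70 ± 0.10, and Dhodh had 0.30 ± 0.12 (SE, adjusted p = 0.148) and was not called. Ctps rose by 0.55 ± 0.12 (SE, adjusted p = 0.0160) and Uck2 by 0.30 ± 0.08 (SE, adjusted p = 0.0389), whereas Ctps2 fell by 0.37 ± 0.07 on the log2 scale (adjusted p = 0.0111). Over all genes tested, 50.5% had a positive fold change.

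Among 16 targets of p53, 4 rose and 1 fell; the number that fell was 2 without RISP_KO replicate 4. Cdkn1a, the cell cycle inhibitor p21, read 6.03, 3.31, 4.66 and 5.60 CPM in RISP_WT and 20.2, 11.3, 24.1 and 21.3 CPM in RISP_KO (log2 fold change 1.97 ± 0.26 SE, adjusted p = 0.00110). Phlda3, an inhibitor of AKT, rose 3.47-fold. Sesn1, a sestrin that restrains mTORC1, went the other way, from 325, 386, 421 and 367 CPM to 154, 155, 129 and 162 CPM (log2 fold change -1.32 ± 0.10 SE, adjusted p = 6.24e-05). The list median was 0.07. Bmf, a BH3-only death gene, fell from between 1.40 and 2.96 CPM to between 0.112 and 0.787 CPM (log2 fold change -2.50 ± 0.50 SE, adjusted p = 0.0109).

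Interferon-inducible genes rose in part, and RISP_KO replicate 1 stood apart. Of 32 tested, 14 rose and none fell (median 0.60), against 20 without RISP_KO replicate 1, and 8 without RISP_WT replicate 1 and 9 without RISP_WT replicate 3. With the marker covariate 1 was called. The mean of the list was -0.43, -0.24, -0.49 and -0.41 in RISP_WT and -0.22, 0.78, 0.46 and 0.55 in RISP_KO. Gbp2, a guanylate-binding protein of cell-autonomous defence, read 119.7, 146, 127 and 158 CPM in RISP_WT and 209, 633, 442 and 520.4 CPM in RISP_KO (log2 fold change 1.71 ± 0.27 SE, adjusted p = 0.00295). Iigp1, an immunity-related GTPase, read 62.6, 82.8, 59 and 77.9 CPM and then 137, 345, 338 and 447 CPM (log2 fold change 2.17 ± 0.29 SE, adjusted p = 0.00127). In both the lowest knockout library was replicate 1 and still lay above each wild-type library. Irf1, the factor that relays interferon gamma, rose by 0.64 ± 0.13, and Igtp by 1.10 ± 0.16. Ifitm2 and Ifitm3, membrane proteins that block viral entry, rose 6.86-fold and 4.59-fold. Ifitm1 read 0.108, 0.0258, 0.221 and 0.429 CPM in RISP_WT and 0.588, 2.75, 30.7 and 38.7 CPM in RISP_KO (log2 fold change 6.43 ± 1.27 SE, adjusted p = 0.00964), close to the wild-type range in replicate 1 and far above it in replicates 3 and 4. Ifit1, Ifit3 and Isg15, which type I interferon also induces, were not called. Ifit1 read 92.4, 91, 53.8 and 59.5 CPM in RISP_WT and 43.7, 108, 43.5 and 50.9 CPM in RISP_KO (log2 fold change -0.27 ± 0.30 SE, adjusted p = 0.618), with replicate 2 of RISP_KO the highest library. Ifit3 had 0.28 ± 0.36 (SE, adjusted p = 0.678) and Isg15 0.50 ± 0.24 (SE, adjusted p = 0.235). Gbp and Ifitm genes are families of near relatives, so reads could have been split among them.

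The promoters of called and uncalled members were searched for another motif. A form of the interferon-stimulated response element, GAAA followed by any 2 bases and GAAA, searched on both strands, lay in the windows of 6 of 9 genes that rose (66.7%), of 9 of 14 uncalled members (64.3%) and of 3.84% of all tested genes with a window. It may overlap other purine-rich motifs. The sequences of 3 genes that rose and of 2 that were not called are shown for comparison, each of 70 bases before the start with the motif in capitals.
Gbp2 (rose; chr3:142620574-142620643, plus strand): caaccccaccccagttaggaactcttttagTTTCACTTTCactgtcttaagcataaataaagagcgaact
Gbp3 (rose; chr3:142559969-142560038, plus strand): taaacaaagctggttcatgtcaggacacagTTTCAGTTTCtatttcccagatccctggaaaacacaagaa
Igtp (rose; chr11:58199486-58199555, plus strand): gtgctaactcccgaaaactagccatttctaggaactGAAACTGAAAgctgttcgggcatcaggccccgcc
Ifit1 (not called; chr19:34640764-34640833, plus strand): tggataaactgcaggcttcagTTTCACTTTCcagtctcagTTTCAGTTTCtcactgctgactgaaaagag
Ifit3 (not called; chr19:34583360-34583429, plus strand): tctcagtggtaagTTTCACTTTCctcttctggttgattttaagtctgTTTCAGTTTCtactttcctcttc
The stretches of Ifit1 and Ifit3 hold 2 copies each and the others hold 1.

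**Figure D3:**
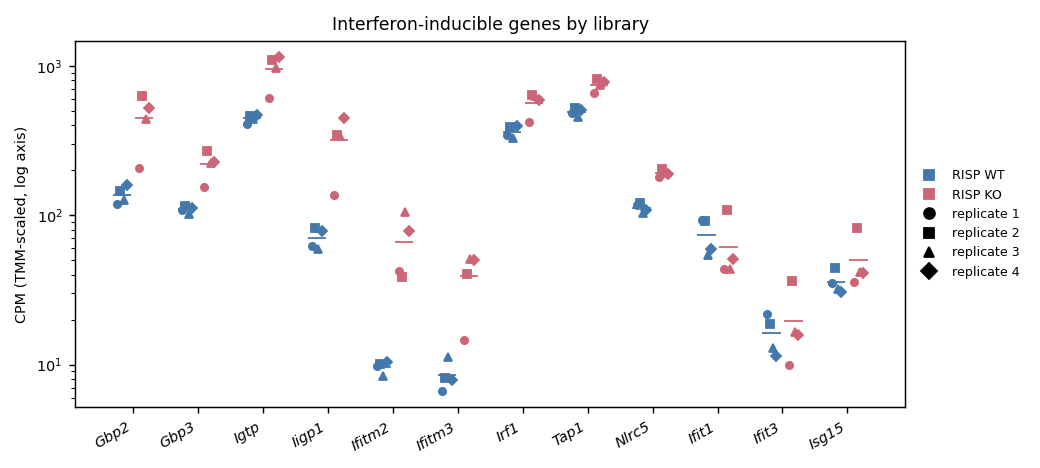
Levels of 12 interferon-inducible and antigen-processing genes. The vertical axis is CPM on a log scale; each symbol is 1 library (shape: replicate), and bars are means of 4 libraries. Gbp2, Gbp3, Igtp, Iigp1, Ifitm2, Ifitm3, Irf1, Tap1 and Nlrc5 do not overlap between genotypes, whereas Ifit1, Ifit3 and Isg15 do.

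Genes of MHC class I antigen processing rose in part. All 15 genes tested had a positive fold change and 8 rose (median 0.41); 7 to 10 rose when 1 library was left out and 0 with the marker covariate. Nlrc5, the transactivator of class I genes, read 117, 121, 104 and 109 CPM in RISP_WT and 180.2, 203, 192 and 189 CPM in RISP_KO (log2 fold change 0.76 ± 0.08 SE, adjusted p = 3.41e-04). The immunoproteasome subunit gene Psmb9 rose by 0.79 ± 0.10 and the peptide transporter gene Tap1 by 0.61 ± 0.08. H2-DMa, which loads peptides on class II molecules, had the smallest p of all genes after Uqcrfs1. It read 43, 42.6, 46.7 and 40.6 CPM in RISP_WT and 226, 204, 258 and 206 CPM in RISP_KO, 5.17-fold higher (log2 fold change 2.37 ± 0.10 SE, adjusted p = 6.69e-07). Its partner chains, looked up after that value was seen, rose too. H2-DMb1 rose by 1.82 ± 0.34 (SE, adjusted p = 0.00753) and H2-DMb2 by 1.71 ± 0.21 (SE, adjusted p = 7.46e-04), each from under 4 CPM in every wild-type library; the latter pair are near copies of each other.

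Cytokine signalling moved at the level of receptors and of their feedback inhibitors. Of 29 genes of the IL-2 and cytokine receptor, STAT and SOCS list, 13 rose and 3 fell (median 0.26), 12 to 15 rose when 1 library was left out and 3 with the marker covariate. Il4ra, the receptor chain shared by IL-4 and IL-13, read 392, 416, 416 and 406 CPM in RISP_WT and 698, 744, 727 and 734 CPM in RISP_KO (log2 fold change 0.83 ± 0.06 SE, adjusted p = 6.24e-05). The feedback inhibitors Cish, Socs1, Socs2 and Socs3 rose by 0.73 ± 0.08, 0.88 ± 0.14, 0.81 ± 0.11 and 1.27 ± 0.17. Il2ra, which encodes CD25 and was used in the sort, rose from between 646 and 853 CPM to between 995 and 1188 CPM (log2 fold change 0.59 ± 0.10 SE, adjusted p = 0.00441), and Il2rb and Stat5a by 0.55 ± 0.11 and 0.46 ± 0.09. Il12rb2, the inducible chain of the IL-12 receptor, read 0.920, 1.45, 0.662 and 2.85 CPM in RISP_WT and 11.4, 9.93, 36 and 32 CPM in RISP_KO (log2 fold change 3.90 ± 0.56 SE, adjusted p = 0.00172), and replicates 3 and 4 of RISP_KO were the highest libraries. Il9r fell from between 14.2 and 36.5 CPM to between 2.34 and 4.53 CPM (log2 fold change -2.88 ± 0.32 SE, adjusted p = 4.38e-04).

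Treg identity genes split by direction. Of 23 lineage and signature genes 4 rose and 4 fell, with a median of 0.04. The count of falls was 2 without RISP_WT replicate 1 or 3 or RISP_KO replicate 2 or 3. Among the rises were Il2ra, Socs2 and Stat5a, given above. Nrp1, a semaphorin receptor typical of thymus-derived Treg cells, read 337, 426, 352 and 368 CPM in RISP_WT and 98.3, 109, 99.3 and 95.2 CPM in RISP_KO, 3.69-fold lower (log2 fold change -1.88 ± 0.09 SE, adjusted p = 2.67e-06). Capg, an actin-capping protein of the Treg signature, fell by 0.42 ± 0.09 on the log2 scale (adjusted p = 0.0135). Ikzf2, which encodes Helios, read 239.9 to 298 CPM in RISP_WT and 179.8 to 244 CPM in RISP_KO (log2 fold change -0.35 ± 0.11 SE, adjusted p = 0.0689). The inhibitory receptor gene Ctla4 overlapped between genotypes (log2 fold change 0.06 ± 0.15 SE, adjusted p = 0.857). Nt5e, the gene of CD73, an ectoenzyme that releases adenosine, fell from 324, 386, 341 and 357 CPM to 163, 199, 175 and 133 CPM (log2 fold change -1.07 ± 0.12 SE, adjusted p = 4.33e-04). Fgl2, a secreted suppressor, fell from between 53.4 and 90.8 CPM to between 9.99 and 28.1 CPM (log2 fold change -1.85 ± 0.30 SE, adjusted p = 0.00351). Of 21 suppressor genes 4 fell and 2 rose (median -0.49). The 2 that rose were Lrrc32 (log2 fold change 0.59 ± 0.16 SE, adjusted p = 0.0378) and Il1r2 (1.25 ± 0.34 SE, adjusted p = 0.0419). The count of falls was 2 without RISP_WT replicate 1 or 3 and 7 without RISP_KO replicate 4. The count of rises was 0 without RISP_WT replicate 1 or 3 or RISP_KO replicate 2 or 3 and 1 without RISP_WT replicate 4 or RISP_KO replicate 4.

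Inhibitory receptor genes fell in part. Of 15 tested 8 fell, 7 were not called and none rose (median -0.66). The number that fell was 7 to 8 when 1 library was left out and 1 with the marker covariate, and 1 rose without RISP_KO replicate 4. Pdcd1, which encodes PD-1, read 171, 207, 164 and 206 CPM in RISP_WT and 60.8, 51.1, 35.1 and 40.0 CPM in RISP_KO (log2 fold change -2.0 ± 0.17 SE, adjusted p = 9.63e-05). Klrg1, a receptor for cadherins on effector Treg cells, read 172, 115, 105 and 104 CPM and then 4.34, 5.39, 20.9 and 7.96 CPM (log2 fold change -3.68 ± 0.45 SE, adjusted p = 7.01e-04), with RISP_KO replicate 3 the highest of the knockout libraries. Tigit fell from between 19.8 and 30.8 CPM to between 7.70 and 8.63 CPM (log2 fold change -1.52 ± 0.17 SE, adjusted p = 4.38e-04). Cd200r1 and Vsir, which encode the receptor of CD200 and VISTA, fell by 1.21 ± 0.15 and 0.66 ± 0.12 on the log2 scale. Cd5, a brake on T cell receptor signalling, fell 1.51-fold. Lag3 was not called, at 0.83 ± 0.25 (SE, adjusted p = 0.0590).

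Transcription factors of effector and helper-like Treg cells fell more often than they rose. Of 23 tested, 9 fell and 3 rose (median -0.48), 7 to 9 and 3 to 4 when 1 library was left out, and 3 and 1 with the marker covariate. Zbtb32, a repressor of T cell expansion, read 33.1, 24.5, 32.9 and 18.4 CPM in RISP_WT and 5.01, 4.15, 3.71 and 4.75 CPM in RISP_KO (log2 fold change -2.63 ± 0.21 SE, adjusted p = 8.46e-05). Pparg, the regulator of tissue Treg cells in fat, read 11.4, 10.1, 9.10 and 5.68 CPM and then 1.01, 1.02, 1.74 and 0.434 CPM (log2 fold change -3.10 ± 0.37 SE, adjusted p = 6.51e-04). Rora fell from between 62.2 and 98.9 CPM to between 26.4 and 36 CPM (log2 fold change -1.44 ± 0.16 SE, adjusted p = 4.57e-04), and Tox and Tox2, factors of chronic stimulation, fell 1.81-fold and 3.74-fold. The 3 that rose were Eomes, Batf and Irf4. Eomes, a T-box factor of cytotoxic cells, read 0.812, 1.45, 1.16 and 2.95 CPM in RISP_WT and 7.86, 13.4, 19.4 and 13.3 CPM in RISP_KO (log2 fold change 3.06 ± 0.40 SE, adjusted p = 0.00107). Batf, an AP-1 factor of effector differentiation, rose by 0.70 ± 0.13. Of 18 genes of resting T cells and homing, 3 rose and 1 fell (median -0.02), and 2 to 5 rose when 1 library was left out. Satb1, a chromatin organiser of resting T cells, rose from 396, 318, 339 and 309.6 CPM to 469.9, 763, 905 and 893 CPM (log2 fold change 1.15 ± 0.18 SE, adjusted p = 0.00301), with the smallest rise in replicate 1. Foxp1 of the same list fell (log2 fold change -0.43 ± 0.11 SE, adjusted p = 0.0384). The count of falls in that list was 0 without RISP_WT replicate 2, 3 or 4 or RISP_KO replicate 1 or 3.

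Receptors for migration moved in both directions. Of 20 chemokine and related receptor genes 8 fell, 4 rose and 8 were not called (median -0.53). The number that fell was 5 without RISP_WT replicate 1 or 3 or RISP_KO replicate 2. The number that rose was 2 without RISP_WT replicate 3 or 4 or RISP_KO replicate 2 or 3. With the marker covariate none of the 20 was called. Ccr10 and Ccr3, receptors of skin and eosinophil chemokines, were near 0 in the knockout. Ccr10 read 21.3, 9.04, 8.60 and 3.51 CPM in RISP_WT and 0.140, 0.352, 1.71 and 0.694 CPM in RISP_KO (log2 fold change -3.85 ± 0.70 SE, adjusted p = 0.00656). Ccr4, which guides Treg cells to skin and lung, read 79.7, 50.4, 96.7 and 40.4 CPM and then 27.6, 29.6, 17.2 and 26.6 CPM (log2 fold change -1.40 ± 0.27 SE, adjusted p = 0.00828). Ccr8, a receptor of tissue Treg cells, rose instead, from 71.1, 90.1, 55.6 and 79.7 CPM to 162, 148, 154 and 128 CPM (log2 fold change 1.0 ± 0.14 SE, adjusted p = 0.00154), and the oxysterol receptor gene Gpr183 rose by 0.92 ± 0.17. Of 20 adhesion genes 5 fell and none rose (median -0.26); the number that fell was 3 without RISP_WT replicate 1. The number that rose was 1 without RISP_KO replicate 1. The 2 chains of the integrin VLA-4 fell together. Itga4 read 167, 165, 181 and 175 CPM in RISP_WT and 42.6, 52.9, 42 and 69.8 CPM in RISP_KO (log2 fold change -1.73 ± 0.15 SE, adjusted p = 1.30e-04), and Itgb1 fell from between 701 and 877 CPM to between 239.9 and 442 CPM (log2 fold change -1.25 ± 0.18 SE, adjusted p = 0.00171). The mean of the chemokine receptor list ranged from -0.98 in RISP_KO replicate 1 to 0.10 in replicate 3.

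**Figure D4:**
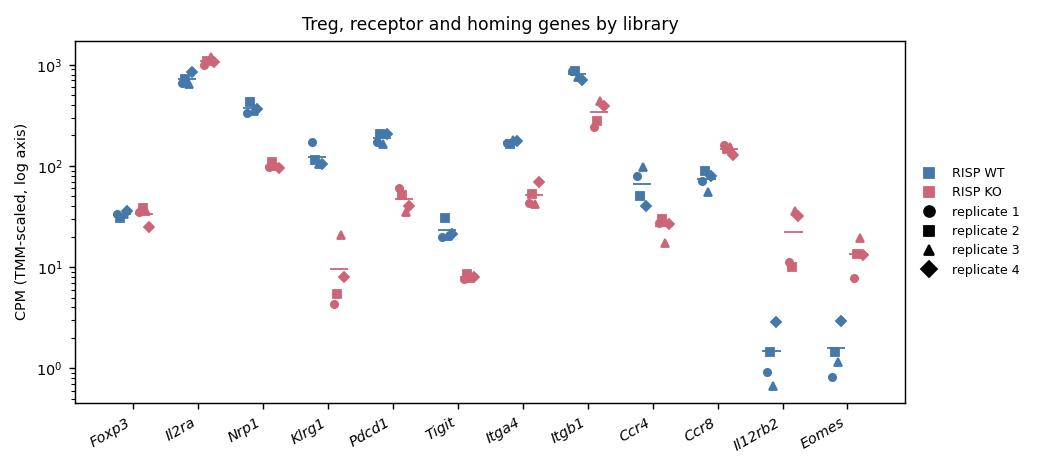
Levels of 12 Treg, receptor and homing genes. The vertical axis is CPM on a log scale; each symbol is 1 library (shape: replicate), and bars are means of 4 libraries. Foxp3 overlaps between genotypes, Nrp1, Klrg1, Pdcd1, Tigit, Itga4, Itgb1 and Ccr4 are lower in every RISP_KO library, and Il2ra, Ccr8, Il12rb2 and Eomes are higher.

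Cytotoxic genes rose in part. Of 15 tested 4 rose and 1 fell, with a median of 0.17. The single fall, of Ctsw, became 0 without RISP_WT replicate 1, 2 or 3 and 2 without RISP_KO replicate 4. Gzma, which encodes granzyme A, read 0.730, 0.517, 1.21 and 2.05 CPM in RISP_WT and 48.8, 40.3, 22.1 and 26.6 CPM in RISP_KO, 29.9-fold higher (log2 fold change 4.90 ± 0.42 SE, adjusted p = 1.26e-04). Cst7, which encodes cystatin F of cytotoxic granules, rose by 1.19 ± 0.18. Gzmb read 64, 39.5, 58.1 and 41.8 CPM and then 42.2, 61.1, 203 and 174 CPM, high in replicates 3 and 4 of RISP_KO, and was not called (log2 fold change 1.24 ± 0.43 SE, adjusted p = 0.0980). Gzma and Eomes are also markers of natural killer cells, and the third such marker tested, Klrb1c, read 2.59 to 5.22 CPM in RISP_WT and 1.71 to 4.56 CPM in RISP_KO (log2 fold change -0.43 ± 0.32 SE, adjusted p = 0.451). Of the other 4 markers on that list none passed the filter on low counts. Of 11 effector cytokine genes 2 rose and 3 fell, 1 to 2 and 2 to 3 when 1 library was left out. Il4 rose from between 0.488 and 0.947 CPM to between 2.26 and 5.07 CPM (log2 fold change 2.32 ± 0.35 SE, adjusted p = 0.00217). The chemokine gene Ccl5 fell from between 9.15 and 19.6 CPM to between 1.79 and 6.86 CPM (log2 fold change -1.87 ± 0.39 SE, adjusted p = 0.0126). Ifng fell from between 2.07 and 3.92 CPM to between 0.252 and 1.35 CPM (log2 fold change -1.81 ± 0.47 SE, adjusted p = 0.0360). Xcl1 fell as well (log2 fold change -2.29 ± 0.47 SE, adjusted p = 0.0118). Of 19 genes of the TNF family and co-stimulation, 5 fell and 2 rose (median -0.15), and 5 to 6 fell when 1 library was left out. Tnfsf8 and Tnfrsf4, which encode CD30 ligand and OX40, rose by 0.99 ± 0.14 and 0.69 ± 0.14. Tnfsf11 and Cd40lg fell by 0.94 ± 0.15 and 0.89 ± 0.14 on the log2 scale, and Tnfrsf1b and Cd28 by 0.56 ± 0.10 and 0.57 ± 0.11.

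Further genes with large changes or a small p had varied roles; large changes were taken among genes whose average log2 CPM reached 3. Plac8, a small cysteine-rich protein of lymphoid and epithelial cells, rose 19.2-fold, from 1.79, 2.43, 3.23 and 2.42 CPM to 26.7, 42.1, 75.6 and 45 CPM (log2 fold change 4.26 ± 0.32 SE, adjusted p = 6.24e-05). Tgm2, the protein-crosslinking tissue transglutaminase, read 3.41, 5.27, 3.20 and 10.9 CPM and then 50.7, 101, 109 and 129 CPM (log2 fold change 4.08 ± 0.42 SE, adjusted p = 3.63e-04). Lhfp, a membrane protein, was among the most even of the large rises, from 2.79, 3.08, 1.79 and 2.98 CPM to 54.3, 36.9, 44.9 and 39.1 CPM (log2 fold change 4.04 ± 0.21 SE, adjusted p = 3.09e-06). Pros1, which encodes protein S, a ligand of the TAM receptors that T cells use to restrain dendritic cells, rose 5.58-fold, and Lif, a cytokine of the IL-6 family, 4.11-fold. Ncf1, a subunit of the phagocyte NADPH oxidase, rose by 1.88 ± 0.13 (SE, adjusted p = 3.14e-05) and Neb, the giant muscle protein nebulin, by 1.72 ± 0.13 (SE, adjusted p = 6.22e-05). Among the falls, Sytl2, which tethers granules to the membrane, went from 77.6, 62.2, 66.9 and 63.9 CPM to 16.8, 19.7, 15.5 and 14.9 CPM (log2 fold change -2.02 ± 0.12 SE, adjusted p = 1.50e-05). Nrn1, neuritin, a product of anergic T and Treg cells, fell 8.17-fold from 19.9 to 37 CPM. Ncmap, a myelin-associated protein, fell 4.90-fold. Smpdl3a, a phosphodiesterase that cleaves nucleotides outside the cell, fell 2.26-fold (log2 fold change -1.17 ± 0.09 SE, adjusted p = 6.24e-05). Myo1f, a myosin of leukocyte migration, read 137, 69.2, 127 and 64.8 CPM and then 22.1, 19.1, 24.7 and 34.1 CPM (log2 fold change -1.99 ± 0.27 SE, adjusted p = 0.00131). S100a4, of motile and effector cells, read 173, 53.6, 160.2 and 65.8 CPM and then 7.70, 21.4, 35.9 and 31.3 CPM (log2 fold change -2.23 ± 0.49 SE, adjusted p = 0.0161), and its call was lost without RISP_WT replicate 1 or 3 (adjusted p up to 0.0529).

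Knockout libraries differed from each other more than wild-type libraries did. Over the 8743 genes whose average log2 CPM reached 3, the median standard deviation of log2 CPM among replicates was 0.183 in RISP_KO and 0.133 in RISP_WT, and it was larger in RISP_KO for 68.8% of the genes. Pairwise correlations of log2 CPM across these genes, which are not independent, ranged from 0.945 to 0.984 within RISP_KO and from 0.982 to 0.989 within RISP_WT.

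The same knockout was also measured in Treg cells of chimeras aged 8 to 12 weeks, of the same strain and sort, with 4 libraries per genotype made with another kit. Age, chimerism and kit differed between the 2 experiments and cannot be told apart. In 1 fit of all 16 libraries, 509 of 15580 genes (3.27%) differed in knockout effect. Of these 318 (2.04%) were more positive and 191 (1.23%) more negative in 3-week-old mice; the total was 323 without RISP_WT replicate 3. In the chimeras' own comparison 102 of 14399 genes (0.708%) were called. Uqcrfs1 itself differed by -1.20 ± 0.27 (SE, adjusted p = 0.0191), with a log2 fold change of -3.60 ± 0.23 in the chimeras.

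Metabolic genes differed in part. Of 21 glycolysis genes 7 had a more positive effect in 3-week-old mice, and the list median in chimeras was 0.02. Hk2 differed by 1.35 ± 0.30 (SE, adjusted p = 0.0186) and Tpi1 by 0.66 ± 0.12 (SE, adjusted p = 0.00483). Of 17 genes of amino acid and one-carbon synthesis 4 differed, all more positive. Asns differed by 2.11 ± 0.47 (SE, adjusted p = 0.0169), with 0.57 ± 0.44 in the chimeras. Of 13 mitochondrial mRNAs 0 were called in the difference test. The medians were -0.55 over 12 mRNAs in 3-week-old mice and -0.62 over 13 in the chimeras. In the chimeras' own comparison 1 of the 13 was called lower, against 8 of 12 in 3-week-old mice. mt-Nd4 changed by -0.93 ± 0.20 in the chimeras, and its difference was 0.13 ± 0.25 (SE, adjusted p = 0.848).

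Interferon-inducible and antigen-processing genes differed in part. Of 32 interferon-stimulated genes 8 were more positive in 3-week-old mice and none more negative, with a median of 0.03 in the chimeras. Of 15 antigen-processing genes 6 were more positive. Iigp1 differed by 2.30 ± 0.36 (SE, adjusted p = 0.00146), Gbp2 by 1.66 ± 0.33 (SE, adjusted p = 0.00855) and H2-DMa by 2.42 ± 0.15 (SE, adjusted p = 1.16e-07), each with a log2 fold change between -0.12 and 0.07 in the chimeras. Of 29 cytokine receptor, STAT and SOCS genes 13 were more positive and 1 more negative. Il12rb2 differed by 3.49 ± 0.62 (SE, adjusted p = 0.00354), and Socs3 by 2.0 ± 0.22 (SE, adjusted p = 1.10e-04). Of 16 p53 targets 4 were more positive, Cdkn1a by 2.47 ± 0.65 (SE, adjusted p = 0.0428), and Sesn1 differed by -1.21 ± 0.15 (SE, adjusted p = 1.81e-04).

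Of 15 inhibitory receptor genes 4 were more negative and 1 more positive in 3-week-old mice, and of 23 effector transcription factors 4 and 3. Among 21 suppressor genes none was more negative and 4 were more positive, with medians of -0.49 in 3-week-old mice and -0.46 in the chimeras. Of 20 chemokine receptor genes 2 were more negative and 3 more positive, and of 23 Treg lineage genes 1 and 4. Klrg1 differed by -2.96 ± 0.55 (SE, adjusted p = 0.00483), Pdcd1 by -1.44 ± 0.26 (SE, adjusted p = 0.00453), Nrp1 by -0.95 ± 0.16 (SE, adjusted p = 0.00319), Nrn1 by -2.73 ± 0.40 (SE, adjusted p = 7.57e-04), Sytl2 by -2.13 ± 0.16 (SE, adjusted p = 1.16e-06) and Itga4 by -1.51 ± 0.18 (SE, adjusted p = 1.81e-04). The effects on Pros1 and Tgm2 differed by 3.44 ± 0.34 (SE, adjusted p = 2.13e-05) and 4.01 ± 0.54 (SE, adjusted p = 3.97e-04), with log2 fold changes of -0.95 ± 0.25 and 0.08 ± 0.30 in the chimeras. Csf1, a growth factor of macrophages, differed by 2.33 ± 0.37 (SE, adjusted p = 0.00146). Its rise in 3-week-old mice lost its call without RISP_WT replicate 1, 2, 3 or 4 or RISP_KO replicate 1 or 3 (adjusted p up to 0.112), and it fell in chimeras (-1.74 ± 0.30, adjusted p = 0.0222). Irf4 differed by 1.20 ± 0.18 (SE, adjusted p = 0.00112) and fell in the chimeras (-0.59 ± 0.12, adjusted p = 0.0496).

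Antimycin A blocks complex III directly, and 1 µM of it was given in vitro to Treg cells of the wild type, also 3 weeks old (3 treated and 3 untreated libraries, another kit and a lower depth). In 1 fit of 14 libraries, 1902 of 16417 genes (11.6%) differed between the knockout effect and the inhibitor effect, with 6.15% more positive and 5.43% more negative in the knockout. Kit, depth and culture cannot be told apart from the kind of block. Effects of antimycin A by itself, with their standard errors, come from a fit that also held the in vitro libraries of the other inhibitors. Mitochondrial mRNAs fell further with the inhibitor. mt-Nd4 changed by -2.84 ± 0.16 with antimycin A, and the difference was 2.01 ± 0.24 (SE, adjusted p = 3.23e-05); 7 of 12 such mRNAs differed, all in that direction. Replication and mitosis genes were lower with the inhibitor. Of 30 replication genes 28, and all 25 mitosis genes, were more positive in the knockout, with medians of -1.28 and -2.05 under antimycin A. Asns rose in both, by 2.64 ± 0.28 in the knockout and 0.99 ± 0.22 with the inhibitor, and Trib3 by 1.74 ± 0.22 and 0.98 ± 0.33. Hk2 rose in the knockout and fell with the inhibitor (-0.79 ± 0.20; difference 2.30 ± 0.30 SE, adjusted p = 7.15e-05), as did Lif (-1.35 ± 0.20; difference 3.36 ± 0.24 SE, adjusted p = 2.37e-07) and the kinetochore gene Spc24 (-2.37 ± 0.36; difference 3.13 ± 0.40 SE, adjusted p = 5.54e-05). The effects on Klrg1, Nrn1, Nrp1 and Tox2 were more negative in the knockout. Klrg1 differed by -3.70 ± 0.67 (SE, adjusted p = 0.00114), Nrn1 by -3.15 ± 0.38 (SE, adjusted p = 3.48e-05) and Tox2 by -3.11 ± 0.41 (SE, adjusted p = 8.06e-05). Nrp1 changed by -0.04 ± 0.10 with antimycin A (difference -1.86 ± 0.14 SE, adjusted p = 2.44e-07), and Cd55, which shields cells from complement, rose there by 1.43 ± 0.34 while it fell in the knockout (-1.75 ± 0.21).

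**Figure D5:**
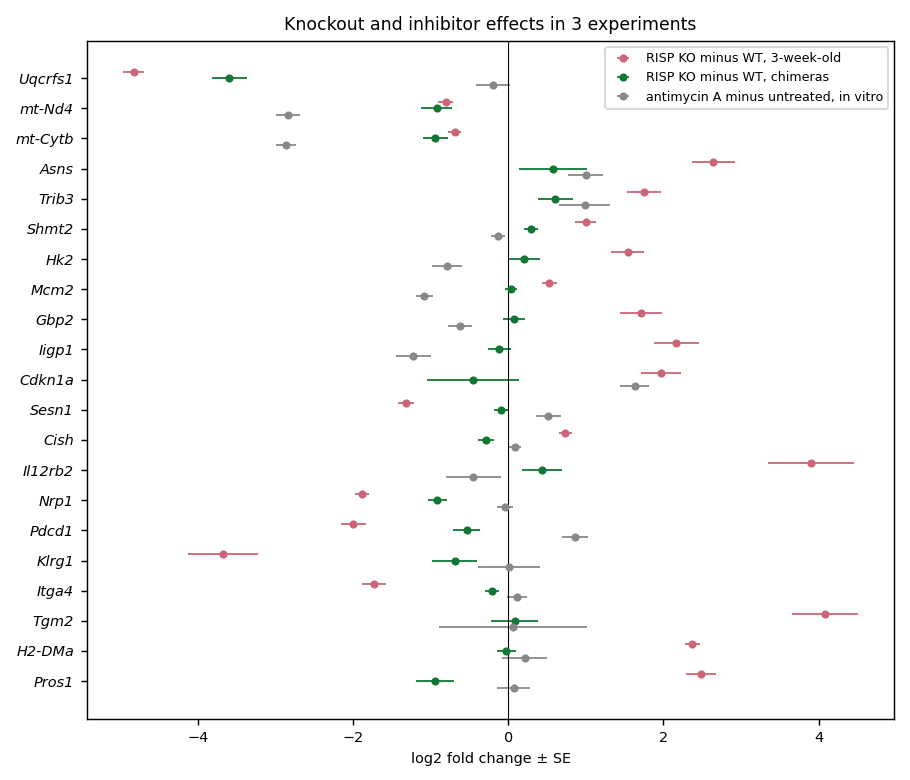
Effects on 21 genes in 3 experiments. Points are log2 fold changes with standard errors: RISP KO minus WT in 3-week-old mice (4 against 4 libraries), RISP KO minus WT in chimeras (4 against 4) and antimycin A minus untreated in vitro (3 against 3). The fit for antimycin A also held the in vitro libraries of the other inhibitors. Uqcrfs1 is low in both knockouts and near 0 with the inhibitor, and H2-DMa and Iigp1 are high in 3-week-old mice only among the 3.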

How the data were processed

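RNA was sequenced from sorted Treg cells of 3-week-old mice, 4 libraries per genotype. The authors deposited raw gene counts; per the submitters' processing notes, bcl2fastq, TopHat, HTSeq and edgeR were used with the mm10 build, and the strand setting of the counting is not given in the sources used here. Rows without a gene name held 0.110% to 0.124% of the counts and were treated like the other rows. From the counts, the quasi-likelihood test of edgeR 4.0.16 with TMM scaling and Benjamini-Hochberg adjustment compared the 8 libraries after a filter on low counts. Differences from the chimeras and from antimycin A were interaction terms in fits of both experiments. DESeq2 1.42.0, other scalings and filters, a marker covariate, a replicate block and leaving out each library were alternatives. The script was tested on simulated data. Members and gene lists were chosen with earlier results of these data known. Genes were named by a rule: fixed Treg genes, the 10 largest changes in each direction without overlap (average log2 CPM of 3 or more), the 10 smallest p, up to 5 called members per list with the smallest p, and the 5 largest differences in each direction under the same minimum. Any other gene named was chosen after its values were seen. Among the deposited columns of per-sample values, 11 matched no label and were not used.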

Additional observations from a re-analysis of the deposited data

Results flagged for a closer look

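Most genes named above were tested in each group of 4 libraries. Of these 308 tests, 22 found 1 library far from the other 3. Chance alone flags about 1 in 20 such groups. RISP_WT replicate 4 stood apart for Cd5 at 687 CPM, Ddit3 at 11.3 CPM, Ddx3y at 98.5 CPM, Il2rb at 2066 CPM and Uqcrc1 at 485 CPM. RISP_WT replicate 2 stood apart for Aars at 153 CPM and Tigit at 30.8 CPM. RISP_WT replicate 1 stood apart for Atf4 at 98.5 CPM, Cd40lg at 36.2 CPM, Klrg1 at 172 CPM and Slc6a9 at 0.460 CPM. RISP_KO replicate 4 stood apart for Ddx3y at 83.2 CPM, Pros1 at 93 CPM and Serpinb1a at 3.18 CPM. RISP_KO replicate 3 stood apart for Osgin1 at 3.62 CPM and Socs2 at 171 CPM. RISP_KO replicate 2 stood apart for Ifit1 at 108 CPM, Isg15 at 81.9 CPM and Smpdl3a at 164 CPM. RISP_KO replicate 1 stood apart for mt-Nd5 at 375 CPM, Mthfd2 at 191 CPM and Psph at 94.5 CPM.

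The knockout effect differed between 3-week-old mice and chimeras for 509 genes by the test of the difference in 1 fit. Among genes named above, the log2 effect was more positive in 3-week-old mice for Asns (2.11), Cdkn1a (2.47), Csf1 (2.33), Gbp2 (1.66), H2-DMa (2.42), Hk2 (1.35), Iigp1 (2.30), Il12rb2 (3.49), Irf4 (1.20), Pros1 (3.44), Socs3 (2.0), Tgm2 (4.01) and Tpi1 (0.66). It was more negative for Itga4 (-1.51), Klrg1 (-2.96), Nrn1 (-2.73), Nrp1 (-0.95), Pdcd1 (-1.44), Sesn1 (-1.21), Sytl2 (-2.13) and Uqcrfs1 (-1.20). Age, chimerism and kit cannot be told apart in these differences.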

How the results depend on the processing

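Against 1364 genes called in RISP_KO and RISP_WT, DESeq2 called 2141, a 1.5-fold minimum 252, the marker covariate 81 and the replicate block 895. Leaving out 1 library gave 787 to 1486. Against 509 genes whose effect differed from that in chimeras, DESeq2 called 917, the replicate block 324 and leaving out 1 library 323 to 627. Other scalings and filters on low counts stayed within 1.5 times these counts. The cause of these changes was not tested. The labels tie the replicate numbers to nothing shared, and deviations of same-numbered libraries correlated at -0.25, 0.04, -0.08 and -0.13 over 8743 genes, although Y-linked Ddx3y was highest in replicate 4 of both genotypes. Under the block 859 of the 1364 genes kept their call. Of the values of single genes, 102 lost their call with the marker covariate, 67 with the 1.5-fold minimum and 5 with the block, and none reversed under any alternative run. With 1 library left out 47 values lost their call and 18 without a call changed sign, as did 6 with the covariate. Depth of 28.4 M to 50.8 M counts limits genes near 0 CPM, such as Slc7a3, Ccr10 and Chac1.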
